A study of Mus musculus with 9 samples.

Results

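The expression of 10 genes for leukocyte adhesion molecules and integrins was followed in primary mouse macrophages given lipopolysaccharide (LPS), with or without prior activation of the liver X receptors (LXRs). The genes were Icam1, Vcam1, Itgb2, Itga4, Itgam, Itgal, Itgax, Itgb1, Itga5 and Selplg. They were chosen by symbol, as 10 of the 24061 gene symbols in the count table, and all rows of a symbol were summed. Bone-marrow-derived macrophages (BMDMs) were grown from the marrow of wild-type C57BL/6J female mice aged 8 to 10 weeks with L-cell conditioned medium and were then deprived of serum. On day 8 the Veh group received the solvent DMSO, the LPS group received DMSO for 3 hr followed by LPS at 10 ng/mL over 2 hr, and the T0+LPS group received 500 nM T0901317 (T0), a synthetic LXR agonist, for 3 hr before the same LPS dose in the same medium. When the Veh cultures were harvested is not given in the sources used here, and any part of harvest time in the comparisons with Veh was not tested. There was no T0 group without LPS, so the T0 difference was measured in LPS-treated cells alone. Each group had 3 polyA RNA-seq libraries from separately differentiated cultures. BMDMs are a culture model of macrophages without the vessel wall or the neutrophils that these molecules meet in tissue.

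A leukocyte leaves the blood in steps. Selectins first catch glycosylated ligands such as PSGL-1, the product of Selplg, and the cell rolls. Integrins, each a pair of an alpha and a beta subunit, then switch to a high-affinity state and hold the cell to members of the immunoglobulin family, ICAM-1 and VCAM-1, or to matrix proteins such as fibronectin. Macrophages carry integrins of the beta2 class (Itgb2 with Itgal, Itgam or Itgax) and of the beta1 class (Itgb1 with Itga4 or Itga5), and once activated they also make ICAM-1 themselves. LXRs are nuclear receptors activated by oxidised sterols that induce cholesterol export genes and repress part of the inflammatory response. The comparison of T0+LPS with LPS addresses the question of whether an LXR agonist lowers adhesion genes in inflamed macrophages.

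The libraries held between 13299044 and 16467983 counted reads, with similar ranges in the 3 groups. In both LPS-treated groups the TMM scaling factors lay between 0.931 and 0.948, against about 1.14 in Veh, so the scaling matters for comparisons with Veh and little for T0+LPS against LPS. The treatments were visible in their usual targets. Abca1 and Abcg1, the LXR-driven cholesterol exporters, were higher in T0+LPS than in LPS by 1.47 and 2.09 on the log2 scale, and Il1b was higher in LPS than in Veh by 9.34. Of 7 macrophage markers, 6 were in the table and all 6 were above 1 CPM (Csf1r, Cd68 and Lyz2 among them). Their summed level was 24730 to 26950 CPM in Veh, 29390 to 30970 in LPS and 32000 to 33510 in T0+LPS. Most of this sum was Lyz2, at means of 19747, 21427 and 23738 CPM, and Cd14 was also higher in LPS (log2 1.73), while Fcgr1 was lower (-0.84) and Cd68 (0.02) and Mrc1 (-0.07) were not called. The table held 7 neutrophil markers, of which 6 were under 1 CPM, S100a9 at 0 reads among them. The other, S100a8, was at 0.987 CPM in Veh, 2.28 in LPS and 1.62 in T0+LPS, and the list summed to at most 3.28 CPM in any library. All 6 stromal and all 6 T and NK cell markers and 4 of 5 B cell markers were under 1 CPM. Of the 6 endothelial markers 5 were under 1 CPM and 3 of these were at 0 reads, while Kdr was at 13.2 CPM in Veh, 8.42 in LPS and 9.38 in T0+LPS. Of the genes at 0 reads, S100a9, Tek, Emcn, Pdgfrb (stromal) and Klrb1c (T and NK) have almost no exon base of their own in the table and could not be measured, while Cldn5 could. In bulk libraries, fewer cells of a type and less RNA per cell cannot be told apart.

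The table measured 8 of the 10 genes. Itgal, the LFA-1 alpha subunit, has 4 rows on chromosome 7 of mm10 from 127296260 to 127335137, and every exon base of each row also belongs to another row. Itgam, the CD11b alpha subunit, has 2 rows on chromosome 7 from 128062640 to 128118491, with 3 exon bases that belong to 1 row only. Both genes were listed at 0 reads in all 9 libraries. The deposited counts leave out reads on bases that several rows share, so these zeros say nothing about whether the macrophages expressed Itgal or Itgam, and neither gene is compared. The other 8 genes have 1 row each, passed the filter on low counts in all 3 comparisons and were tested. Vcam1 was under 1 CPM in Veh and passed because of the LPS-treated libraries.

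The promoters of the LPS-induced members are shown because LPS gave the largest differences among these genes. RefSeq promoters of build GRCm38.p6, the assembly called mm10, were at hand for 6 of the 10 genes (Icam1, Itga4, Itga5, Itgam, Itgax and Itgb1). Each sequence below is the 250 bases before the start site, 5′ to 3′ on the strand of the gene. These are the 3 genes with an entry that rose more than 2-fold with LPS, namely Icam1 (chr9:21015690-21015939, plus strand), Itga5 (chr15:103366792-103367041, minus strand) and Itga4 (chr2:79255176-79255425, plus strand). Capitals mark the motifs found.
Icam1: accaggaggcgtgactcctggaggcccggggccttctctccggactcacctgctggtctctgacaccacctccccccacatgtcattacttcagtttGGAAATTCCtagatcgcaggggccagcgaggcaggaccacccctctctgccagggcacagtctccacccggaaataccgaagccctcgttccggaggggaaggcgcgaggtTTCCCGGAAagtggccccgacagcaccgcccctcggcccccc
Itga5: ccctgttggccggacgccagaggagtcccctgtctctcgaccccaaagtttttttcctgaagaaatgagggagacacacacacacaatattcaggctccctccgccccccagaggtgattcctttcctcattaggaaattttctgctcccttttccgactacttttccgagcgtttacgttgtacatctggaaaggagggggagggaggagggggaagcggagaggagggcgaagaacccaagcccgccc
Itga4: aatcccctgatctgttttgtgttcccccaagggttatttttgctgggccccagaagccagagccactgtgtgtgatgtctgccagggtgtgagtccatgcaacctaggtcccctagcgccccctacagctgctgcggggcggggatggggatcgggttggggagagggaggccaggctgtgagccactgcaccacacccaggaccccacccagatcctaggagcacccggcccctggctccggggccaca
The motifs, 5 in all and chosen with the sequences in view, were searched on both strands. The first capital run in Icam1 is the NF-kB site GGAAATTCC, 153 bases before the start site, which 0.286% of 32817 promoter windows of this length hold. The second is TTCCCGGAA, 42 bases before the start site, a match to the STAT-binding GAS element TTCNNNGAA that 7.01% of windows hold. Itgax, whose window is not printed, held TGAGTCA 56 bases before its start site, a match to the AP-1 site TGANTCA found in 6.75% of windows. The TATA box TATAAA (12.4% of windows) and the nuclear receptor half-site AGGTCA (14.0%) matched none of the 6 genes, and no motif of the 5 matched Itga4, Itga5, Itgb1 or Itgam. The NF-kB site was searched only as the exact letters GGAAATTCC, so other forms of it were not looked for in any gene. Its share of windows and the lack of a match outside Icam1 depend on that choice, and nothing is read from them. A match describes the letters in this window and is not a measured site.

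Levels are given as CPM, read counts relative to the TMM-scaled library size, and genes are compared with each other after division by the kilobases of exon that no other row shares. In Veh, Itgb2, the beta2 subunit (CD18), had the highest level of the 8 genes, at 827 ± 8.73 CPM per kb (SD, n = 3). Itgb1, the beta1 subunit, followed at 188 ± 2.95 CPM per kb (SD, n = 3), and Itgax, the CD11c alpha subunit, at 121 ± 4.32 (SD, n = 3). Selplg was at 96.3 ± 3.46 and Itga5 at 39.4 ± 0.311 CPM per kb (SD, n = 3 each). Itga4, at 15.1 ± 0.971, and Icam1, at 14.1 ± 1.65 CPM per kb (SD, n = 3 each), did not differ beyond their spread, and Vcam1 was last at 0.121 ± 0.0311.

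LPS changed the order. Icam1 moved from the seventh place to the first, at 1469.5 ± 76.1 CPM per kb (SD, n = 3), above Itgb2 at 918 ± 44.0 and Itgb1 at 268 ± 3.45. Itgax, at 162 ± 12.8, and Itga5, at 156 ± 4.05 CPM per kb, overlapped in LPS, although Itga5 had been far below Itgax in Veh. Selplg, at 79.9 ± 5.61, lay below both, followed by Itga4 at 34.4 ± 4.16 and Vcam1 at 22.0 ± 1.03 CPM per kb. In T0+LPS the order was the same but for Itgax and Itga5, whose libraries overlapped at 138 ± 13.8 and 146 ± 1.22 CPM per kb (SD, n = 3 each). Icam1 at 1158 ± 96.9 CPM per kb was still the highest of the 8 genes and Vcam1 at 15.4 ± 1.79 still the lowest.

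**Figure D1:**
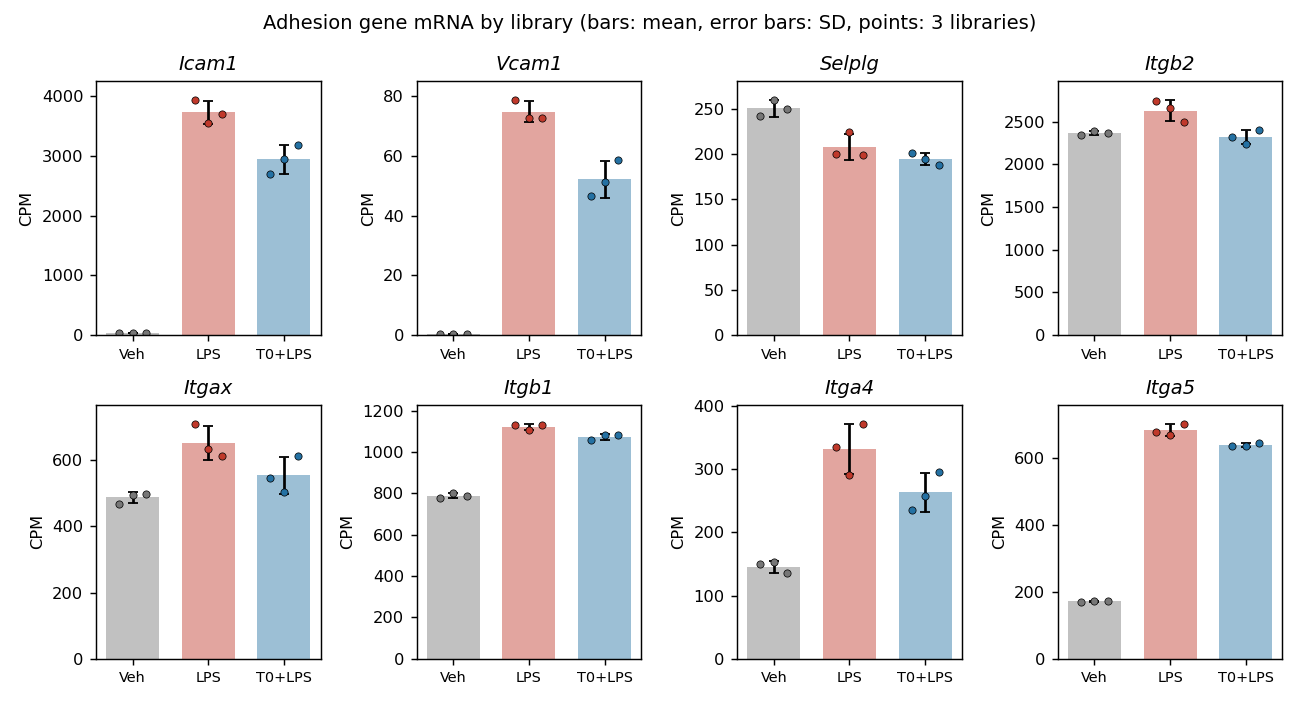
Level of each of the 8 measured genes in CPM (vertical axis from 0, 1 panel per gene) in Veh, LPS and T0+LPS. Bars are means, error bars are SD and points are the 3 libraries of a group. Icam1 and Vcam1 are close to 0 in Veh at 35.9 and 0.411 CPM, while Itgb2 is at 2241 CPM or more in every library.

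LPS raised 7 of the 8 measured genes against Veh and lowered 1, Selplg (edgeR's quasi-likelihood test, adjusted by Benjamini-Hochberg over all genes tested and from here on called BH-adjusted, with a call at an adjusted p under 0.05). Among all 9559 genes tested, 32.9% were called higher and 31.2% lower. The 3 LPS libraries lay outside the range of the 3 Veh libraries for all 8 genes, above it for 7 and below it for Selplg, where 33.7% of all genes tested lay wholly above and 33.7% wholly below. The median log2 fold change was 0.85 over the 8 genes and -0.0019 over all genes tested. Vcam1 is among the 7 but passed the filter only because of the LPS libraries. Its part in these counts and in the median is therefore not independent of the filter. The sizes ranged from over 100 times for the immunoglobulin-family ligands to 1.11-fold for Itgb2.

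The immunoglobulin-family counter-receptors changed most. Icam1 (chromosome 9, 21015960 to 21028796, plus strand, 7 exons, all coordinates in mm10) encodes ICAM-1, the ligand of the beta2 integrins. Its levels were 32.0, 35.3 and 40.3 CPM in the 3 Veh libraries and 3938, 3554 and 3701 CPM in the 3 LPS libraries. All LPS libraries were far above all Veh libraries. The log2 fold change was 6.70 (standard error, SE, 0.08, adjusted p = 1.7e-19, edgeR's quasi-likelihood test, BH-adjusted), a 104-fold rise and the 52nd largest of the 9559 genes tested. Vcam1 (chromosome 3, 116110020 to 116129688, minus strand, 9 exons) encodes VCAM-1, the ligand of the integrin of Itga4 and Itgb1 and best known from activated endothelium. It was at 0.481, 0.463 and 0.290 CPM in Veh, which is 9, 7 and 5 reads, and at 78.8, 72.8 and 72.7 CPM in LPS. Vcam1 was thus barely detected without LPS and clearly present in every LPS library. Of the 4 measurable endothelial markers, Cdh5, Tie1 and Cldn5 stayed under 1 CPM in all 9 libraries, Cldn5 at 0 reads. Mean levels went from 0.0742 CPM in Veh to 0.402 in LPS for Cdh5, from 0.180 to 0.124 for Tie1 and from 13.2 to 8.42 for Kdr. Sele, which encodes E-selectin, was at 0 CPM in Veh, 2.72 in LPS and 1.05 in T0+LPS. The part of endothelial cells in the Vcam1 difference was not tested. Its log2 fold change of 7.48 (SE 0.12, adjusted p = 1.7e-17, edgeR's quasi-likelihood test, BH-adjusted) was the 36th largest, a 179-fold rise whose size rests on the few Veh reads.

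Of the beta1 class, the fibronectin receptor subunit Itga5 (chromosome 15, 103344286 to 103366748, minus strand, 30 exons) rose from 171, 172 and 173 CPM in Veh to 677, 669 and 703 CPM in LPS. The spread within each group was small beside the gap between them. Its log2 fold change was 1.99 (SE 0.04, adjusted p = 2.6e-16, edgeR's quasi-likelihood test, BH-adjusted), a 3.98-fold rise. Itga4 (chromosome 2, 79255426 to 79333114, plus strand, 28 exons), the alpha subunit of the VCAM-1 receptor, rose from 149, 153 and 135 CPM to 335, 291 and 371 CPM. The LPS libraries of Itga4 differed among themselves more than those of Itga5, but the lowest was still well above the highest Veh library. Its log2 fold change was 1.19 (SE 0.07, adjusted p = 3.7e-10, edgeR's quasi-likelihood test, BH-adjusted), a 2.28-fold rise. Itgb1 (chromosome 8, 128685654 to 128733579, plus strand, 16 exons), the beta subunit both of them pair with, was at 778, 802 and 787 CPM in Veh and at 1132, 1107 and 1132 CPM in LPS. Itgb1 rose less than either alpha subunit, with a log2 fold change of 0.51 (SE 0.04, adjusted p = 5.0e-09, edgeR's quasi-likelihood test, BH-adjusted), a 1.43-fold rise.

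Of the beta2 class, Itgax (chromosome 7, 128129568 to 128150657, plus strand, 30 exons), which encodes CD11c and marks dendritic cells as well as macrophages, was at 467, 495 and 499 CPM in Veh and at 709.9, 633 and 612 CPM in LPS. The groups were apart, and the log2 fold change was 0.42 (SE 0.05, adjusted p = 2.5e-06, edgeR's quasi-likelihood test, BH-adjusted), a 1.34-fold rise. Of 6 dendritic cell markers, 4 were under 1 CPM. The sum of all 6 rose from 0.405 to 0.529 CPM in Veh to 2.54 to 2.99 CPM in LPS. Mean levels went from 0.248 CPM in Veh to 1.79 in LPS for Xcr1, from 0.0948 to 0.719 for Zbtb46 and from 0 to 0.180 for Ccr7. Cd209a went from 0.111 to 0 CPM, and Flt3 and Siglech were at 0 in both groups. The part of dendritic cells in the Itgax difference was not tested. Itgb2 (chromosome 10, 77530348 to 77565674, plus strand, 16 exons) was at 2339, 2388 and 2372 CPM in Veh and at 2739.5, 2654 and 2492 CPM in LPS. The lowest LPS library lay just above the highest Veh library. Its log2 fold change of 0.15 (SE 0.04, adjusted p = 0.0042, edgeR's quasi-likelihood test, BH-adjusted) turned to -0.13 (adjusted p = 0.0069) when libraries were scaled by their totals only, so its direction against Veh depends on the scaling. That scaling moved the median of all genes to -0.28, and relative to this median Itgb2 was again higher.

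Selplg (chromosome 5, 113817798 to 113830501, minus strand, 2 exons), the selectin ligand, was at 242, 260.1 and 249.6 CPM in Veh and at 200.2, 225 and 199 CPM in LPS. All LPS libraries were lower than all Veh libraries. It fell by 0.27 on the log2 scale (SE 0.05, adjusted p = 0.00027, edgeR's quasi-likelihood test, BH-adjusted), to 0.832 of the Veh level. Selplg was the only one of the 8 measured genes with a lower level after LPS under TMM scaling.

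**Figure D2:**
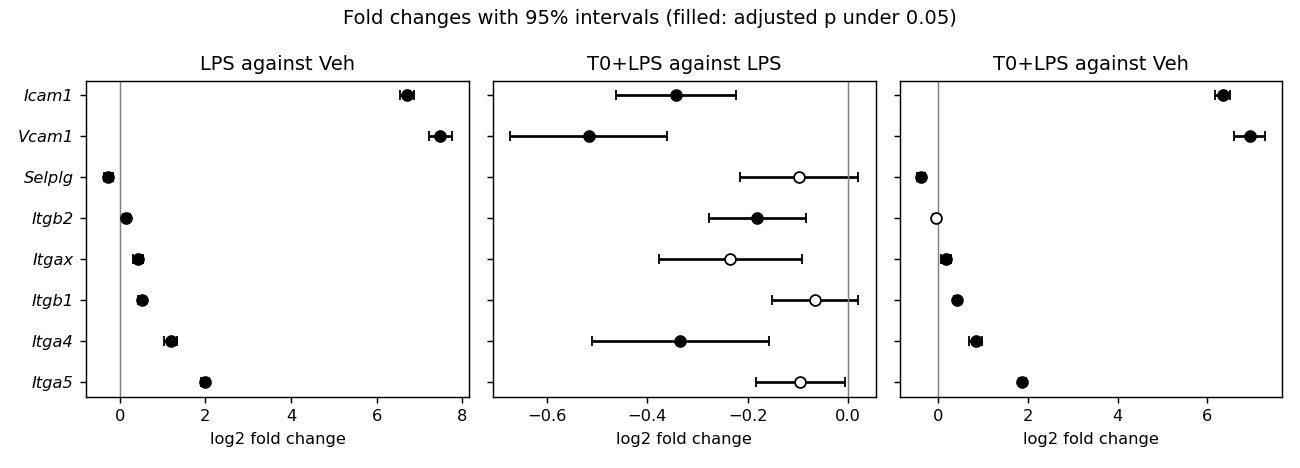
Log2 fold change of each measured gene (horizontal axis) in LPS against Veh, T0+LPS against LPS and T0+LPS against Veh, with 95% intervals from edgeR's fit. Vcam1 and Icam1 stand far to the right against Veh at 7.48 and 6.70, while against LPS all 8 T0+LPS estimates are below 0. The small positive values of Itgb2 in LPS and of Itgax in T0+LPS against Veh turn negative when libraries are scaled by totals only.

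Pretreatment with T0 lowered Vcam1, Icam1, Itga4 and Itgb2 relative to LPS, and the other 4 measured genes did not pass the test. No gene was called higher, the means of all 8 were lower, and in 5 of the 8 the 3 T0+LPS libraries lay wholly below the 3 LPS libraries (edgeR's quasi-likelihood test, BH-adjusted). Of all 9348 genes tested, 1.83% were called lower, 1.35% were called higher, 9.62% lay wholly below and 9.51% wholly above. At an unadjusted p under 0.05, 0 genes were higher and 6 lower, a rule for which the share of all genes is not given here. DESeq2 gave 0 higher and 4 lower, with Itgax in place of Itga4. Over the 7 alternative settings of processing, DESeq2 among them, 115 to 225 of all genes were called higher and 166 to 285 lower. The median log2 difference was -0.21 over the 8 genes and 0.0028 over all genes tested. The study reports adhesion molecules, Itgb2 by name, as lowered by T0 in these same libraries, so the direction of these genes is not independent evidence.

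The strongest call was Vcam1. Its levels in T0+LPS were 46.6, 51.3 and 58.7 CPM, against 78.8, 72.8 and 72.7 CPM in LPS. The highest T0+LPS library was below the lowest LPS library. Its log2 difference was -0.52 (SE 0.07, adjusted p = 0.00086, edgeR's quasi-likelihood test, BH-adjusted), a difference of -30.1%, and the 159th largest decrease of the 9348 genes. It kept its call with each library left out in turn, at -0.61 to -0.44. Icam1 was at 2692, 2948 and 3184 CPM in T0+LPS, against 3938, 3554 and 3701 CPM in LPS. The groups did not overlap here either. Icam1 changed by -0.34 on the log2 scale (SE 0.06, adjusted p = 0.0024, edgeR's quasi-likelihood test, BH-adjusted), which is -21.2%, and it kept its call with each library left out in turn, at -0.40 to -0.28. Among decreases it was the 441st largest.

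The calls of Itgb2 and Itga4 were close to the threshold. Itgb2 was at 2317, 2241 and 2399 CPM in T0+LPS and at 2739.5, 2654 and 2492 CPM in LPS. The gap between the groups was smaller than the range within either of them, and the log2 fold change was -0.18 (SE 0.05, adjusted p = 0.043, edgeR's quasi-likelihood test, BH-adjusted), or -11.8%. The Itgb2 call was kept only without LPS replicate 3 (adjusted p = 0.0064) and was lost without each of the other 5 libraries (edgeR adjusted p from 0.066 to 0.30). It was also lost, at an adjusted p = 0.052, when the replicate number entered edgeR's fit as a block. Itga4 was at 236, 258 and 296 CPM in T0+LPS and at 335, 291 and 371 CPM in LPS, and here the highest T0+LPS library exceeded the lowest LPS library. Its log2 fold change of -0.33 (SE 0.08, adjusted p = 0.040, edgeR's quasi-likelihood test, BH-adjusted), or -20.7%, stayed called without LPS replicate 2 (0.0060) and without T0+LPS replicate 3 (0.015). Without any of the other 4 libraries its adjusted p lay between 0.090 and 0.15, and with DESeq2 it was 0.23.

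Itgax was at 546, 502 and 613 CPM in T0+LPS and at 709.9, 633 and 612 CPM in LPS. The groups overlapped by the highest T0+LPS and the lowest LPS library, and the log2 fold change of -0.23 (SE 0.07, 95% interval -0.38 to -0.09) did not pass at an adjusted p = 0.077 (edgeR's quasi-likelihood test, BH-adjusted). It did pass with no filter (0.00024), with DESeq2 (0.037), in a fit to all 9 libraries (0.044), without LPS replicate 3 (edgeR adjusted p = 0.028), without T0+LPS replicate 3 (0.024) and with the replicate block (0.020). A verdict on Itgax therefore turns on the choice of test.

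The remaining genes had small differences. Itgb1 was at 1058, 1082 and 1081 CPM in T0+LPS, a log2 difference of -0.07 (95% interval -0.15 to 0.02, adjusted p = 0.54, edgeR's quasi-likelihood test, BH-adjusted). Itga5 was at 636, 637 and 646 CPM, with -0.09 (95% interval -0.18 to -0.0049, adjusted p = 0.32, same edgeR test). For both genes all T0+LPS libraries lay below all LPS libraries even so. Selplg was at 201, 195 and 188 CPM, overlapping the LPS libraries, with a log2 fold change of -0.10 (95% interval -0.21 to 0.02, adjusted p = 0.48, edgeR's quasi-likelihood test, BH-adjusted). These intervals still allow decreases of up to 0.15, 0.18 and 0.21 on the log2 scale, so small decreases are not shown to be absent.

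**Figure D3:**
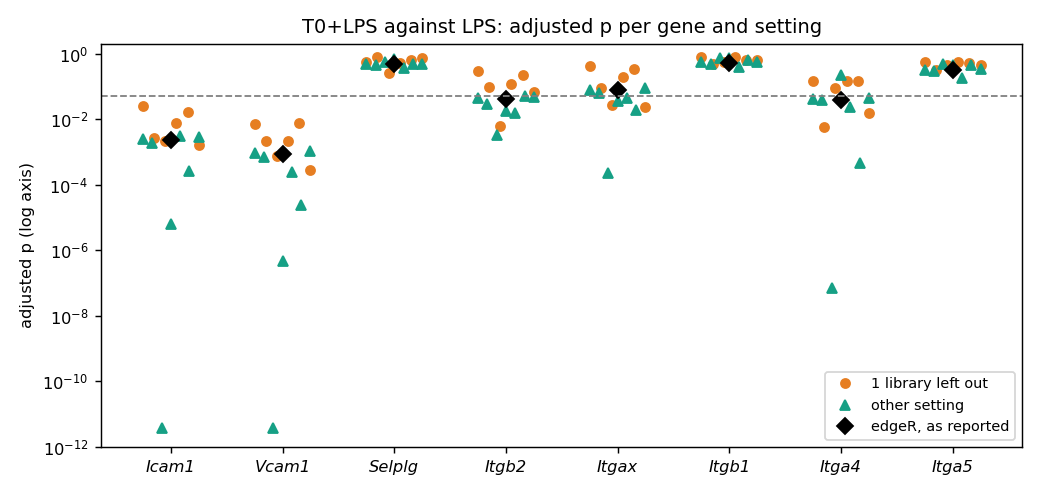
Adjusted p of each measured gene (vertical axis, log scale) for T0+LPS against LPS under each setting tried, the main one and those without 1 library included. Icam1 and Vcam1 stay under 0.05 in every setting shown, while Itgb2, Itga4 and Itgax cross it.

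Within the T0+LPS group, replicate 1 was the lowest and replicate 3 the highest for Icam1, Vcam1 and Itga4, and replicate 2 was the lowest and replicate 3 the highest for Itgb2 and Itgax. The T0+LPS library nearest to the LPS group was therefore replicate 3 in all 5 of these genes. It was also replicate 3 for Itga5, but replicate 2 for Itgb1 and replicate 1 for Selplg.

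The share of the LPS-induced difference that was left in T0+LPS puts both treatments on 1 scale. In each T0+LPS library it is the distance from the Veh mean as a percent of the distance between the LPS and Veh means, so that a full share means no T0 difference. It shares the LPS and Veh libraries with the comparisons above and was not tested. For Icam1 it was 71.9%, 78.8% and 85.2%, a mean of 78.6% ± 6.66 (SD, n = 3), and for Vcam1 62.1%, 68.4% and 78.3%, a mean of 69.6% ± 8.18 (SD, n = 3). T0 thus left most of the LPS rise of both counter-receptors in place. Itga4 kept 63.1% ± 16.3, Itga5 91.5% ± 1.04 and Itgb1 85.1% ± 4.11 (SD, n = 3 each). The spread of Itga4, from 48.3% to 80.6%, covers the means of Icam1 and Vcam1. Itgax was at 40.6% ± 33.7 and Itgb2 at -18.0% ± 30.1 (SD, n = 3 each). For these 2 genes the LPS difference itself was small and the share varied widely, from 9.40% to 76.4% for Itgax and from -47.8% to 12.4% for Itgb2, lowest in replicate 2 and highest in replicate 3 for both. In each T0+LPS library the share of Itgax was above that of Itgb2. The mean was 22.7% for Itgax and -33.2% for Itgb2 without T0+LPS replicate 3, and 56.2% and -3.13% without T0+LPS replicate 2. Selplg was at 132% ± 15.5 (SD, n = 3), so each T0+LPS library was further below the Veh mean than the LPS mean was. The single T0+LPS and LPS libraries of Selplg overlapped.

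Set against Veh, T0+LPS left 6 of the 8 measured genes higher, Selplg lower and Itgb2 not called (edgeR's quasi-likelihood test, BH-adjusted), where 32.4% of the 9636 genes tested were higher and 32.9% lower. The same 6 lay wholly above the Veh libraries and Selplg wholly below, as did 35.6% and 33.8% of all genes tested. Vcam1, among these 6, passed the filter only because of the T0+LPS libraries, so its count here is not independent of the filter. This comparison shares its libraries with both others and its values stand beside theirs without a further test. Icam1 was still 80.8-fold and Vcam1 123-fold above Veh, with log2 fold changes of 6.34 and 6.94. Itga5 was 3.66-fold, Itga4 1.78-fold and Itgb1 1.34-fold above Veh, all called. Itgax was 1.12-fold above Veh, at a log2 value of 0.16 (adjusted p = 0.015, same edgeR test), which became -0.10 (adjusted p = 0.11) with scaling by totals only, and its call was lost without Veh replicate 1 (0.060) or T0+LPS replicate 3 (0.080). Itgb2 had a log2 fold change of -0.05 (95% interval -0.12 to 0.02, adjusted p = 0.20, edgeR's quasi-likelihood test, BH-adjusted), which became -0.31 (adjusted p = 5.4e-07) with scaling by totals only, close to the median of all genes under that scaling, -0.29. Selplg was at 0.764 of its Veh level.

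The balance of alpha to beta subunits was compared within each library, where scaling between libraries plays no role. The ratio of Itga5 to Itgb1 per kilobase was 0.211, 0.206 and 0.211 in Veh, 0.574, 0.581 and 0.597 in LPS and 0.578, 0.565 and 0.574 in T0+LPS. It was 2.79-fold higher in LPS than in Veh, with no overlap, and the exact two-sided permutation test gave its smallest possible p of 0.1 (0.15 adjusted over 9 tests). With 3 against 3 libraries no ratio could reach 0.05. LPS with T0 gave a ratio close to that of LPS alone, at a log2 difference of -0.03 (exact permutation p = 0.2). The ratio of Itga4 to Itgb1 was 0.0834, 0.0826 and 0.0744 in Veh and 0.128, 0.114 and 0.142 in LPS, again without overlap, and 0.0967, 0.104 and 0.119 in T0+LPS, which overlapped LPS. Itga5 thus had the larger gain over the shared beta1 subunit and Itga4 the smaller. For the beta2 class the ratio of Itgax to Itgb2 was 0.142, 0.147 and 0.149 in Veh, 0.184, 0.170 and 0.175 in LPS and 0.168, 0.159 and 0.182 in T0+LPS. Its log2 difference was 0.27 for LPS against Veh (exact permutation p = 0.1) and -0.06 for T0+LPS against LPS (exact permutation p = 0.4).

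**Figure D4:**
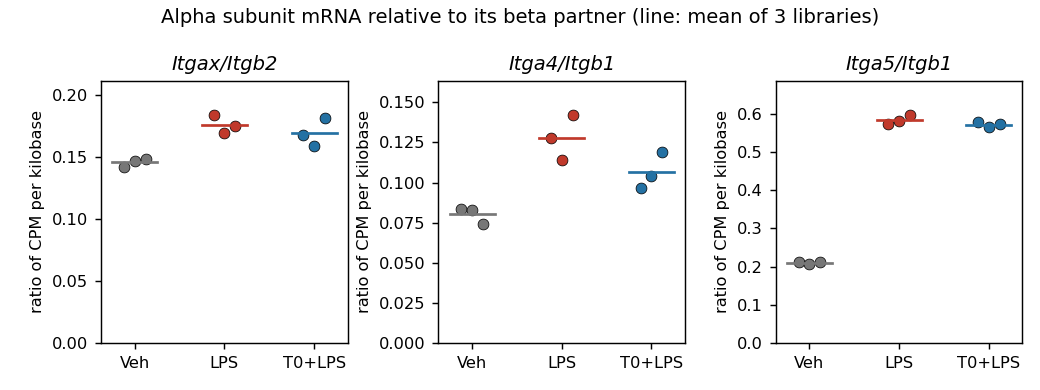
Ratio of alpha to beta subunit level per kilobase (vertical axis) in each library, for Itga5 and Itga4 over Itgb1 and for Itgax over Itgb2, by group. The Itga5 points rise from about 0.21 in Veh to 0.57 or more in the LPS and T0+LPS groups, with 1 library at 0.565.

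Genes whose levels followed each member most closely over the 9 libraries were found among 6386 genes with a mean of at least 10 CPM. The measure was the root mean square difference of log2 levels, with 1 CPM added before the log, centred per gene. For Icam1 the nearest were Gpr84, Il12b and Clec4e, at 0.196, 0.219 and 0.256. For Vcam1 the nearest was Adora2a, at 0.105. The added 1 CPM shrinks the LPS rise of Vcam1, which was under 1 CPM in Veh. Adora2a rose by 5.815 on this scale with LPS, less than the 7.48 that edgeR gave for Vcam1. For the nearly flat Itgb2 the nearest was Pdha1 at 0.0297, for Itga4 Zdhhc21 at 0.0938, for Itgax Tmem110 at 0.0430, for Itgb1 Limd1 at 0.0127, for Itga5 Rassf4 at 0.0510 and for Selplg Polr3gl at 0.0422. These are descriptions over 9 libraries in 3 groups.

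The other genes of the adhesion pathway were taken from 6 lists with 97 entries. As with Itgal and Itgam, some entries have little exon of their own in the table. Itgb5, Pecam1, Cadm1, Cd99l2, Ptk2b, Cyth1, Adam8, Adam9 and Adam17 have at most 0.099 kb each. Their low or 0 counts say nothing about their expression. In LPS against Veh, 54 of them were tested, of which 29 were higher and 10 lower, where 32.9% and 31.2% of all genes were (same edgeR test). Of the 29, 9 were under 1 CPM in Veh, as Vcam1 was. These could hardly have passed the filter without being high in LPS, so nothing is read from the share of the lists. Cd44 and Spp1, among the 9, were counted on only 0.369 and 0.183 kb of unshared exon. Their low Veh counts are therefore not a measure of near absence. Among other integrin subunits, 9 of 19 were tested, 4 were higher and 1 lower. Itgb8 (log2 3.91) and its partner Itgav (2.05) rose most, and Itgb3 fell by 0.29, a call lost with DESeq2 (adjusted p = 0.051). Among other immunoglobulin-family and junctional molecules, 5 were higher and 2 lower of 9 tested, and 4 of the 5 were under 1 CPM in Veh. Cd47, the "don't eat me" protein, rose by 0.72 on the log2 scale, and Cd84, a SLAM-family receptor, fell by 1.02. In the list of selectins, their ligands and glycosylation enzymes, 5 were higher and 3 lower of 11. B4galt1, a galactosyltransferase, fell by 0.58, and Tpst2, which sulfates tyrosines such as those of PSGL-1, rose by 0.34, a call lost with scaling by totals only (log2 0.05, edgeR adjusted p = 0.32).

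Of the genes that activate integrins or link them to actin, 11 of 17 tested were higher and 3 lower in LPS. Rap1b, the small GTPase of inside-out activation, rose by 1.01 on the log2 scale, while Rassf5, its effector RAPL, fell by 0.98 and Cytip, which binds cytohesin-1, fell by 0.84. Of the soluble and matrix ligands, 3 of 5 tested were higher and 0 lower (1 at an unadjusted p under 0.05, 0 with DESeq2), with Thbs1, thrombospondin 1, at 1.47. Of 3 sheddases tested, Mmp9 was higher at 1.78 and Adam15 lower at -0.52, a call lost without Veh replicate 1 (edgeR adjusted p = 0.051). Adam15 was counted on only 0.147 kb of exon that no other row shares.

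T0 pretreatment moved few of these genes. In T0+LPS against LPS 56 were tested, 0 were called higher and 2 lower (3.57%, against 1.83% of all genes) by edgeR's quasi-likelihood test, BH-adjusted. At an unadjusted p under 0.05, 3 were higher and 12 lower. The share of all genes under that rule is not given here, so nothing is read from these counts. DESeq2 called 0 higher and 2 lower, not the same 2, with 1 of the other integrin subunits in place of Thbs1. Actn1, the actin crosslinker alpha-actinin 1, went from 681 CPM in LPS to 558 CPM in T0+LPS (log2 -0.29, edgeR adjusted p = 0.0060), and Thbs1 from 131 ± 13.0 to 90.9 ± 19.7 CPM (SD, n = 3 each, log2 -0.52, edgeR adjusted p = 0.016). The Actn1 call was lost without LPS replicate 1 (0.060), and the Thbs1 call without T0+LPS replicate 3 (0.072) and with DESeq2 (0.15). Among the 9 other integrin subunits tested 0 were called by edgeR, with 1 higher and 2 lower at an unadjusted p under 0.05 and 1 lower with DESeq2. The means of 38 of the 56 genes were lower, and their median log2 difference was -0.08, against -0.21 for the 8 members and 0.0028 for all genes tested. In T0+LPS against Veh, 30 of 54 were higher and 13 lower, where 32.4% and 32.9% of all genes were, and 8 of the 30 were under 1 CPM in Veh.

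**Figure D5:**
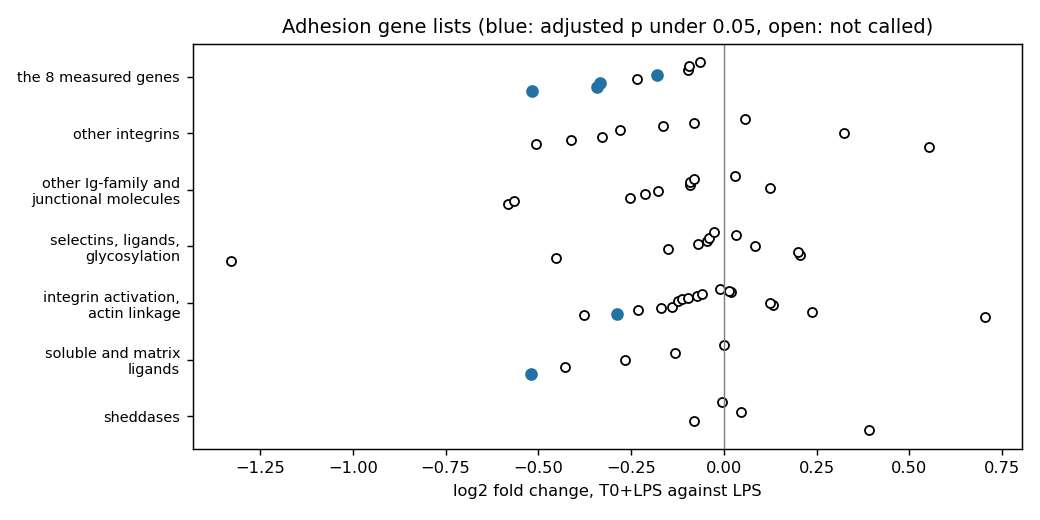
Log2 difference between T0+LPS and LPS (horizontal axis) for the tested genes of each of 7 lists, the members and 6 lists of other adhesion genes, with called genes marked. The called genes are Vcam1, Icam1, Itga4 and Itgb2 among the members, and Actn1 and Thbs1 among the others.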

How the data were processed

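RNA-seq libraries of BMDMs were compared in 3 groups of 3, assigned from the sample labels. The authors trimmed reads with cutadapt, ran HISAT2 against the mm10 transcriptome and counted reads on RefSeq rows with featureCounts, and the deposited counts are whole reads, not normalized. Whether counting used strand is not given in the sources used here. The deposited length column gives the exon bases of each row, another quantity per the file headers. Reads on bases shared by rows are not in the counts, as tested from the exon positions. The authors' table of fold values and p-values for T0+LPS against LPS and a list of gene names were not used.

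Rows of 1 symbol were summed. Pairs of groups were tested with edgeR 4.0.16 in R 4.3.3 (quasi-likelihood test, TMM, filterByExpr, Benjamini-Hochberg over all genes tested, call at an adjusted p under 0.05), and subunit ratios with exact permutation tests. The scripts were tested on simulated data. Alternatives were DESeq2 1.42.0, its size factors in edgeR, scaling by library totals, each row tested on its own, ratios not divided by length, no filter, 1 fit across all 9 libraries, a replicate block and leaving out each library. Total counts per library were 13299044 to 16467983. All libraries differed from their replicates by more than sampling noise (chi-square per degree of freedom 2.63 to 6.67). Named genes of other lists were at most 4 per list and comparison, called, without overlap between groups, with a mean of at least 5 CPM, by size of change. The 10 members and all lists were chosen with earlier results of these data known.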

Additional observations from a re-analysis of the deposited data

How the results depend on the processing

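With scaling by library totals only, the log2 fold change of Itgb2 in LPS against Veh became -0.13 and that of Itgax in T0+LPS against Veh -0.10. Members called lower became 2 in both comparisons with Veh. All genes went from 3148 higher and 2981 lower to 1694 and 5411 in LPS against Veh (lower calls 48.6% to 76.2%), and from 3121 and 3172 to 1659 and 5523 in T0+LPS against Veh (50.4% to 76.9%). The share of the LPS change left became 229% for Itgb2, -64.9% for Itgax, 67.8% for Itgb1, 90.4% for Itga5 and 115% for Selplg. The cause was not tested beyond the scaling itself.

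In T0+LPS against LPS, all genes called were 126 higher and 171 lower, 225 and 285 with no filter, and 59 to 167 and 82 to 191 with 1 library left out (lowest without LPS replicate 1). Members called lower were 2 to 4 of the main 4 with 1 library left out, being 2 without LPS replicate 1 and also without replicate 1 or 2 of T0+LPS. With 1 library left out, the share of the LPS change left was 90.3% to 93.3% for Itga5, 110.0% to 147% for Selplg, 22.7% to 56.2% for Itgax and -33.2% to -3.13% for Itgb2.

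Same-numbered libraries showed no clear shared deviations, with correlations of 0.04, -0.12 and -0.02 for T0+LPS and LPS. The labels give no pairing, and these correlations cannot exclude one. With the replicate block, 4 members were called lower in that comparison, with Itgb2 lost and Itgax gained. Counting depth limits Vcam1 in Veh, at 5 to 9 reads per library.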
